A study of Mus musculus with 6 samples.

Results

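Ltf, Camp, Ngp, Lcn2, Fcnb and Chil3 are 6 of the 20394 genes in a single-cell count table of leukocytes from arthritic mouse joints. They were chosen by symbol as genes of the secondary granule program of neutrophils, and each symbol was found once in the table. The cells came from C57BL/6 mice that had been immunized against methylated bovine serum albumin in complete Freund's adjuvant and then challenged with the same antigen in the knee. All mice therefore carried antigen-induced arthritis, and they received either the vehicle PBS (2 samples) or 300 µg of PEPITEM, a peptide, by the intraperitoneal route (4 samples). CD45+ cells were sorted from enzymatically digested joints, and 3′ libraries were made on the 10x Chromium platform. No source used here ties the 6 library numbers carried by the cell barcodes to the 6 samples, so the libraries below are of unknown treatment, PBS and PEPITEM were not compared, and the spread of a level is given over these libraries, as the lowest, median and highest value.

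Neutrophils load their granules while they develop. Azurophil granule proteins such as myeloperoxidase and neutrophil elastase are made first, in promyelocytes, and secondary granule proteins follow in myelocytes and metamyelocytes under the transcription factor C/EBPε, the product of Cebpe. Gelatinase granules are filled later, and a mature neutrophil carries the proteins long after most of the messenger RNA has gone. Lactoferrin (Ltf) binds iron, cathelicidin (Camp) is the precursor of an antimicrobial peptide, lipocalin 2 (Lcn2) captures bacterial siderophores, and neutrophilic granule protein (Ngp) belongs to the cystatin-like proteins. Ficolin B (Fcnb) is a lectin that recognizes microbial sugars, and Chil3 encodes the chitinase-like protein Ym1, which is also known from macrophages.

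Camp, Ngp and Ltf lie on 1 chromosome. In GRCm38 coordinates from the GENCODE annotation, Camp (chr9:109847379-109849617, minus strand, 4 exons), Ngp (chr9:110419747-110423012, plus strand, 4 exons) and Ltf (chr9:111019271-111042767, plus strand, 17 exons in its first listed transcript) fall within 1195389 bases. Fcnb (chr2:28076378-28084885) and Lcn2 (chr2:32384633-32388252) lie on the minus strand of chromosome 2 with 4299747 bases between them, and Chil3 (chr3:106147554-106167564) lies on the minus strand of chromosome 3. Of the 26 other genes of the table between Camp and Ltf, 3 reached 50 CPM (counts of unique molecular identifiers, UMIs, of a gene per 1000000 UMIs of the cells in question) in the granulocyte cells, the highest being Ccdc12 at 116.9 CPM. Of the 20394 genes of the whole table, 2475 reached that level, not counting the members, which is a similar share. Of the 3 genes between Camp and Ltf, 1 was highest in the cluster where Ngp and Ltf were highest. This was Map4, with 78.5 CPM there and 55.8 CPM in the least mature cluster, and no such count over all genes is given.

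The 250 bases before each start of transcription, taken from RefSeq on GRCm38.p6, were searched on both strands for 5 strings of letters. The string TTNNGCAA, a common form of the sequence that C/EBP factors recognize, was present before 4 of the 6 members (Ltf, Ngp, Lcn2 and Fcnb) and before 9.55% of 27025 promoters of the same length. The looser TTNNGNAA, which contains every match of the former, was present before 5 members and 36.9% of promoters. GAGGAAGT (2.44% of promoters), TTGCGCAA (0.170%, itself one form of TTNNGCAA) and TATAAA (13%) were present before none of the members. Stretches of up to 40 bases around 4 of the TTNNGCAA matches are printed to show the letters of each match. Each is read 5′ to 3′ on the strand of its gene, and capitals mark the match. The printed Ngp match lies on the opposite strand, where it reads TTGGGCAA, the same letters as the Ltf match. The Ltf match began 75 bases before the start (chr9:111019201-111019240, plus strand), the Ngp match 138 bases before it (chr9:110419654-110419693, plus strand), and the Fcnb matches 235 and 123 bases before it (chr2:28085090-28085128 and chr2:28084978-28085017, minus strand).
Ltf: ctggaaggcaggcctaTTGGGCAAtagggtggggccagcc
Ngp: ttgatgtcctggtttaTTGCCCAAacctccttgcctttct
Fcnb, farther match: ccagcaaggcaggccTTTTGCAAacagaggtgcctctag
Fcnb, nearer match: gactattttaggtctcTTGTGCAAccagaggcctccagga
A second Ngp match at 11 bases and the Lcn2 match at 216 bases fell inside the genes as GENCODE draws them and are not printed. Camp had no TTNNGCAA and no TTNNGNAA in its window. A match, or the lack of one, is a description of the letters and not evidence about a bound factor. Whether C/EBP factors act on any member was not tested. As GENCODE draws the genes, the Camp window (chr9:109849457-109849706, minus strand) lay mostly inside its gene and the Lcn2 window (chr2:32387740-32387989, minus strand) wholly inside. The match counts and the lack of a match for Camp thus hold for windows set by the RefSeq starts.

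The table held 32953 cells. The 6 libraries had 2919 to 9345 cells, 47273569 to 123367661 UMIs and medians of 9923 to 14001 UMIs per cell. Clustering without the 6 members gave 34 clusters, of which 7, with 11786 cells (35.8%), were named as granulocytes from markers that include no member. These were 5 neutrophil-like clusters with 9701 cells and 2 granulocyte precursor-like clusters with 2085 cells, and they made up 11.6% to 48.5% of the cells of a library. Although CD45+ cells had been sorted, 161 fibroblast-like and 15 erythroid-like cells were present, and 652 cells were stem and progenitor-like. Which tissue of the digested joints these and the granulocyte precursor-like cells came from was not tested. A total of 138 barcodes occurred in 2 libraries each (276 cells, 0.838%), and leaving those cells out moved the highest cluster level of each member by less than its counting interval. Besides counts above 0, the table stores 1724738 zeros, 1.68% of its entries. These were read as entries that the authors' removal of ambient RNA emptied, and they are kept apart from counts above 0 and from cells with no entry.

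The 7 granulocyte clusters were ordered by a maturation score, the mean log level of 6 late genes (Cxcr2, Il1b, Csf3r, Msrb1, Il1r2, Clec4d) minus that of 6 early genes (Mpo, Elane, Prtn3, Ctsg, Ms4a3, Prss57). Each cluster is called by its 2 leading genes. The order began with Elane-Mpo (953 cells), followed by Orm1-Cebpe (1132 cells), Aff2-Abca13 (2322 cells), Mmp8-Retnlg (1982 cells), Dach1-Abca13 (529 cells), Gm5483-Stfa2l1 (2390 cells) and Ifitm1-Ptgs2 (2478 cells). The azurophil gene Mpo stood at 4720 CPM in the first cluster and at 11 CPM in the second. The cell cycle genes Mki67, Top2a, Cdk1, Birc5, Ccnb1 and Ube2c together reached 900.5 CPM in the first cluster and 2053 CPM in Orm1-Cebpe. Depth differed along the order, from a median of 34973 UMIs per cell in Elane-Mpo and 29116 in Orm1-Cebpe to 4061.5 in Ifitm1-Ptgs2, with Dach1-Abca13 (18305 UMIs) as the exception. The smallest groups were 11 cells of Orm1-Cebpe, 17 of Dach1-Abca13 and 21 of Elane-Mpo, all in library 3. Cells of 1 library share their source, so the levels are sums over cells per library and carry no test. Counting intervals (Poisson for levels, Wilson for shares, both 95%) cover counting error only.

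Transcripts of the 6 genes made up 2.47% of all UMIs in Elane-Mpo, 10.7% in Orm1-Cebpe and 10.8% in Aff2-Abca13. They made up 4.00% in Mmp8-Retnlg, 0.671% in Gm5483-Stfa2l1 and 0.252% in Ifitm1-Ptgs2. Dach1-Abca13 broke the order with 7.93%, at a mean score of 1.99, close to the 1.93 of Mmp8-Retnlg.

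Fcnb was the only member with its highest level in Elane-Mpo, the first cluster of the order. Its lowest, median and highest library level was 923.4, 1142 and 1323 CPM in Elane-Mpo, against 649.2, 854.5 and 1067 CPM in Orm1-Cebpe and 224.7, 274.8 and 454.7 CPM in Aff2-Abca13. All 6 libraries had more in the first cluster than in the second, although the ranges overlapped. Within Elane-Mpo, cells with Ngp above 0 had 2032 CPM of Fcnb, and cells with a stored zero for Ngp had 243.0 CPM. The pooled Fcnb level in Elane-Mpo was 1007 CPM (counting interval 996.5 to 1018). In Mmp8-Retnlg it was 7.70 CPM, and 2.57% of the cells had a count above 0, with a lowest library at 0. The pooled level was 34.4-fold lower in Mmp8-Retnlg than in Aff2-Abca13, the largest ratio of the 6 members across that step, and lower in 6 of 6 libraries. It rested on 131 UMIs in Mmp8-Retnlg, 84 of them in library 5, and was 55.8-fold without that library.

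Camp and Chil3 were highest in Orm1-Cebpe, the cycling precursor cluster. Camp stood at 38499, 40580 and 43280 CPM there (lowest, median, highest library), at 10684, 13185 and 17490 CPM in Elane-Mpo and at 32958, 35942 and 36871 CPM in Aff2-Abca13. The ranges of these 3 clusters did not overlap. The mean cell of Orm1-Cebpe held 1322 Camp UMIs. Chil3 stood at 5351, 5744 and 6790 CPM in Orm1-Cebpe and at 3293, 3484 and 4036 CPM in Aff2-Abca13, again without overlap. From Aff2-Abca13 to Mmp8-Retnlg, Camp was 3.81-fold and Chil3 7.09-fold lower, in 6 of 6 libraries each.

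Ngp, Ltf and Lcn2 were highest in Aff2-Abca13. Ngp was nearly level over that cluster and the one before it, with 37303, 39120 and 43904 CPM in Orm1-Cebpe and 38264, 41718 and 44483 CPM in Aff2-Abca13. These ranges overlapped almost fully, and 5 of 6 libraries were higher in the later cluster. Ltf was apart between the same clusters, with 7156, 8044 and 8542 CPM in the earlier and 11920, 12253 and 13502 CPM in the later, a pooled ratio of 1.49 with 6 of 6 libraries higher and no overlap. Lcn2 stood at 10259, 11639 and 13691 CPM in the earlier and at 14214, 16233 and 17020 CPM in the later, a pooled ratio of 1.32, also with 6 of 6 libraries higher and no overlap. From Elane-Mpo to Orm1-Cebpe, Ltf had the largest ratio of the members (12.7), ahead of Lcn2 (7.05), Ngp (5.43), Chil3 (5.36) and Camp (3.18), whereas Fcnb had a ratio of 0.767.

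**Figure D1:**
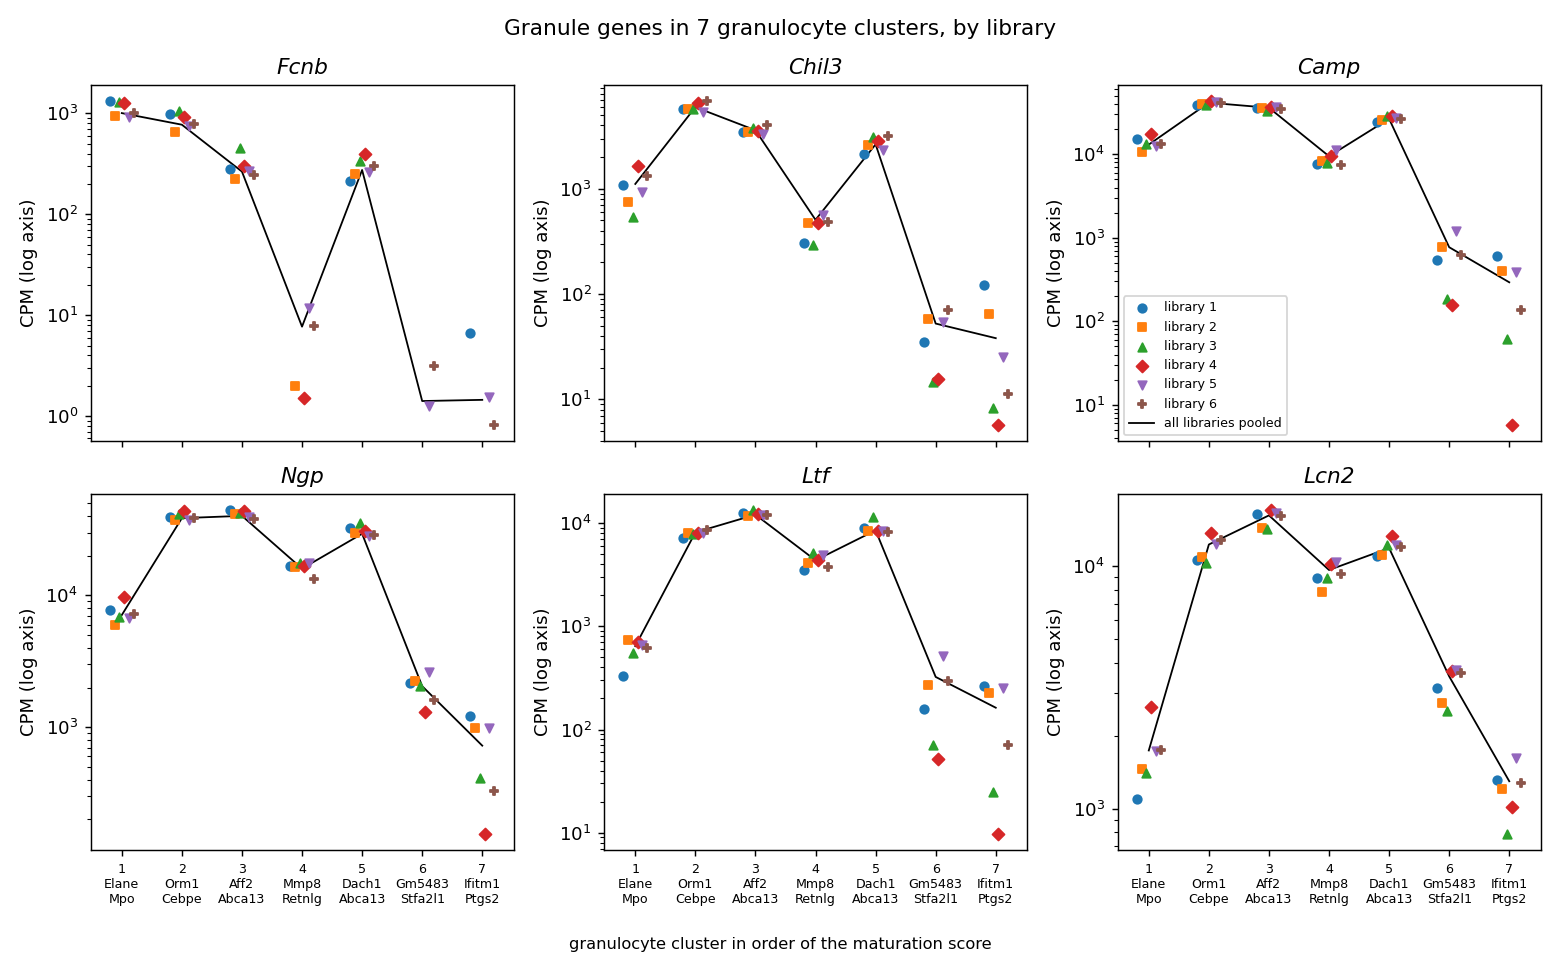
Level of each member (CPM, log axis) in the 7 granulocyte clusters ordered by maturation score, with 1 point per library and a line for the pooled level, and with libraries at 0 CPM left off the axis. Fcnb starts highest at 1007 CPM and is below 10 CPM in Mmp8-Retnlg, while Lcn2 is still at 1299 CPM in the last cluster.

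Mmp8-Retnlg and the 2 clusters at the end of the order held less of every member than Aff2-Abca13 did. Lcn2 stood at 7819, 9097 and 10357 CPM in Mmp8-Retnlg (lowest, median, highest library), at 2523, 3383 and 3746 CPM in Gm5483-Stfa2l1 and at 786.9, 1244 and 1612 CPM in Ifitm1-Ptgs2. Ngp stood at 13247, 16732 and 17618 CPM, then at 1304, 2105 and 2645 CPM, then at 154.6, 699.7 and 1220 CPM in the same clusters. For both genes the 3 ranges did not overlap. Ltf stood at 3552, 4288 and 5140 CPM, at 52.3, 215.4 and 514.8 CPM, and at 9.66, 148.0 and 264.9 CPM. The last 2 clusters overlapped for Ltf, with 5 of 6 libraries lower in the later one, and they overlapped for Camp as well (158.5, 579.2 and 1216 CPM against 5.68, 266.0 and 601.5 CPM). Measured from Aff2-Abca13, the pooled level in Ifitm1-Ptgs2 was 12.4-fold lower for Lcn2, 55.4-fold for Ngp, 74.7-fold for Ltf, 94.2-fold for Chil3, 123-fold for Camp and 183-fold for Fcnb, each in 6 of 6 libraries. The Fcnb value rested on 17 UMIs, 10 of them in library 1, and was 387-fold without that library. Fcnb did not differ beyond the spread between the last 2 clusters, at 1.41 and 1.45 CPM.

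The 11786 cells were split into 10 bins of equal size along the score, each a range of the score and not a cell type. In CPM this gave a like sequence, with Ngp 1 place earlier beside Camp. The highest bin was the first for Fcnb, the second for Camp, Chil3 and Ngp, and the third for Ltf and Lcn2, and all 6 libraries had the same highest bin for every member. By bin 6, levels stood at 5.49% of the highest bin for Fcnb, 37.6% for Ngp, 38.2% for Ltf and 56.6% for Lcn2. By bin 8 they stood at 4.27% for Ltf, 4.96% for Ngp and 19.5% for Lcn2. Between the highest bin and the last, Lcn2 differed 18.3-fold, Ngp 298-fold, Ltf 445-fold, Chil3 865-fold, Fcnb 919-fold and Camp 1254-fold. Fcnb had 6 UMIs in the last bin, 5 of them in library 5, and differed 4341-fold without that library. Chil3 had 36 UMIs there and differed 756-fold to 1189-fold without each library in turn. Camp had 179 UMIs and differed 1018-fold to 1533-fold. The order of these 3 folds is thus not settled. Camp was a stored zero in 41.3% of the cells of the last bin, and how much the removal of ambient RNA lowered its level was not tested. The bins are mixtures at their borders. Bin 1 was 80.7% Elane-Mpo cells, and bin 2 was split between Orm1-Cebpe (48.9%) and Aff2-Abca13 (49.5%). The sequence depends on the score. With the late genes alone, the middle of the highest bin lay at 15% of the order for Fcnb, Camp and Chil3. It lay at 25% for Ngp, Ltf and Lcn2.

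**Figure D2:**
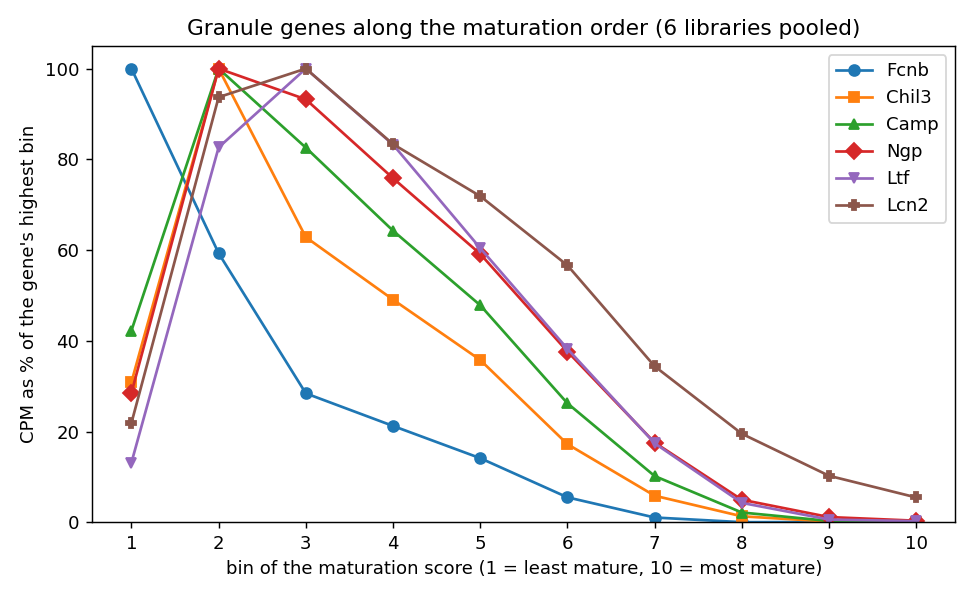
Pooled level of each member in 10 bins of the maturation score, as a percentage of that gene's highest bin. In bin 4 Fcnb is at 21.2%, Chil3 at 49.1%, Camp at 64.3%, Ngp at 75.8%, Ltf at 83.2% and Lcn2 at 83.3%. In bin 8 Lcn2 is at 19.5% and Ngp at 4.96%.

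The genes of the program did not keep fixed proportions. Camp had 1.84 UMIs per Ngp UMI in Elane-Mpo (1.79 to 1.96 over libraries), 1.08 in Orm1-Cebpe (0.951 to 1.13), 0.899 in Aff2-Abca13 (0.786 to 0.936) and 0.594 in Mmp8-Retnlg (0.441 to 0.653). Lcn2 went the other way, with 0.245 per Ngp UMI in Elane-Mpo (0.141 to 0.273), 0.403 in Aff2-Abca13 (0.339 to 0.421), 0.603 in Mmp8-Retnlg (0.478 to 0.699) and 1.71 in Gm5483-Stfa2l1 (1.22 to 2.84). Ltf had 0.0908 UMIs per Ngp UMI in Elane-Mpo (0.0421 to 0.123), 0.303 in Aff2-Abca13 (0.281 to 0.322) and 0.275 in Mmp8-Retnlg (0.213 to 0.292). The library ranges of the first and the third cluster did not overlap for any of these ratios. In the last 2 clusters the spread between libraries was wide, with 1.08 to 6.61 Lcn2 UMIs per Ngp UMI in Ifitm1-Ptgs2, where library 4 held 154.6 CPM of Ngp and library 1 held 1220 CPM.

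**Figure D3:**
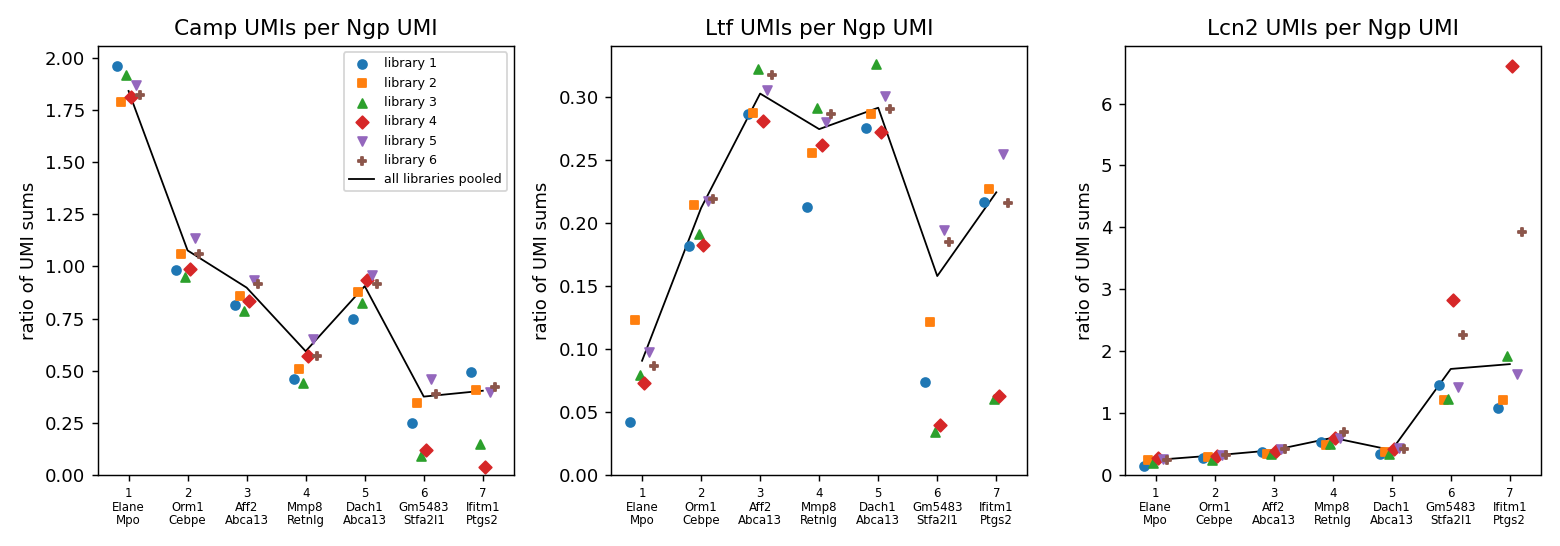
Ratio of summed Camp, Ltf and Lcn2 UMIs to summed Ngp UMIs in the 7 granulocyte clusters, 1 point per library and a line for the pooled ratio (linear axes from 0). Over the first 4 clusters Camp runs from 1.84 to 0.594 and Lcn2 from 0.245 to 0.603.

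The earliest cluster was not uniform. In Elane-Mpo, 432 of 953 cells (45.3%) had Ngp above 0, from 37.4% to 55.2% of the cells of a library, and they held it at high copy, with a median of 504.5 UMIs and a lower quartile of 180.25 UMIs. Another 468 cells (49.1%) had a stored zero for Ngp, and 53 (5.56%) had no entry. The cells with Ngp carried 30145 CPM of Camp, 3994 CPM of Lcn2 and 2407 CPM of Chil3, and those with a stored zero 147.2, 28.0 and 114.8 CPM. Fcnb stood at 2032 CPM in the former and at 243.0 CPM in the latter. Relative to its level in cells with Ngp, Fcnb thus kept more counts than the other 4 members. In the cells with a stored zero for Ngp, stored zeros were also found for Camp in 82.5%, Lcn2 in 63.7%, Ltf in 54.9% and Chil3 in 32.3%. For Fcnb they were found in 2.14%, and how far its rank follows the removal of ambient RNA was not tested. Genes outside the member list differed along with the members. Cebpe was at 398.2 CPM with Ngp and 118.3 CPM with a stored zero, S100a8, an alarmin gene of maturing granulocytes, at 89886 and 5022 CPM, and Mpo, by contrast, at 2965 and 6167 CPM. Elane was similar in both (7278 and 7706 CPM). The split follows the entries as deposited, and what counts stood in the place of the stored zeros is not known here.

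In the most mature cells the members differed in what was left. In Ifitm1-Ptgs2, Lcn2 was above 0 in 64.5% of 2478 cells and a stored zero in 5.69%, at 786.9, 1244 and 1612 CPM over libraries. Ngp was above 0 in 27.4% and a stored zero in 27.8%, at 154.6, 699.7 and 1220 CPM. Camp was above 0 in 9.93% and a stored zero in 41.6%, at 5.68, 266.0 and 601.5 CPM, and Chil3 was above 0 in 3.71%. Stored zeros thus outnumbered counts for Camp and were about as frequent for Ngp, and how much the removal of ambient RNA lowered these levels was not tested. Thinned to 2000 UMIs per cell, 53.1% of these cells kept Lcn2, 18.9% Ngp and 6.64% Camp.

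Dach1-Abca13 combined a late score with high levels of the members. Its cells had 2301 CPM of Il1b and 1391 CPM of Il1r2, late genes of the score, against 199.3 and 441.6 CPM in Aff2-Abca13. Next to Mmp8-Retnlg, the pooled levels of the late genes Il1b (2301 against 1590 CPM) and Il1r2 (1391 against 1042 CPM) were higher in Dach1-Abca13. Those of Csf3r (492.1 against 422.0 CPM) and Clec4d (636.8 against 607.3 CPM) were close. Cxcr2 (270.8 against 481.6 CPM) and Msrb1 (867.8 against 1116 CPM) were lower. The spread of these 6 genes over libraries is not given. Camp stood at 24404, 26597 and 29052 CPM and Ngp at 28100, 30367 and 35294 CPM over the libraries of Dach1-Abca13. All of these were above every library of the cluster before it, Mmp8-Retnlg (up to 11400 and 17618 CPM). The proportions of Dach1-Abca13 were those of Aff2-Abca13 within the library ranges, with 0.906 Camp, 0.404 Lcn2 and 0.292 Ltf UMIs per Ngp UMI. The mean cell held 599.8 Ngp and 174.9 Ltf UMIs, next to 578.4 and 175.2 in Aff2-Abca13, at a median depth of 18305 against 12791 UMIs. Whether droplets with more than one cell contributed was not tested. Without this cluster the highest bin of all 6 members was unchanged.

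Most of the members were found together in the same cells. Over 11558 granulocyte cells thinned to 2000 UMIs, which left out 228 shallower cells, Pearson's r of log2(UMIs + 1) was 0.935 for Camp and Ngp (0.925 to 0.941 over libraries), 0.914 for Ltf and Camp (0.892 to 0.933) and 0.898 for Ltf and Ngp (0.887 to 0.913). Lcn2 was closest to Ngp (0.842) and Chil3 to Camp (0.849). The 5 pairs with Fcnb were the 5 lowest of the 15, from 0.158 with Lcn2 to 0.469 with Chil3. These values describe cells that share libraries, depth after thinning and a position on the maturation order. They were lower where that position was narrowed to a bin. Within bins, the median over pairs was 0.404 against 0.778 over all cells. The median over bins was 0.726 for Camp and Ngp, 0.727 for Ltf and Camp, and 0.0758 for Lcn2 and Fcnb. Single bins ranged widely, from 0.180 to 0.959 for Camp and Ngp. The range was -0.0434 to 0.890 for Ltf and Camp and 0.0494 to 0.828 for Ltf and Ngp. All 6 members were detected at once in 67.4% of the thinned cells of Orm1-Cebpe, 21.7% of Elane-Mpo, 20.7% of Aff2-Abca13 and 0.515% of Mmp8-Retnlg. In Aff2-Abca13, 74.9% had exactly 5, and Fcnb was the member found least often there (20.7% of cells). In Elane-Mpo 37.8% had none.

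**Figure D4:**
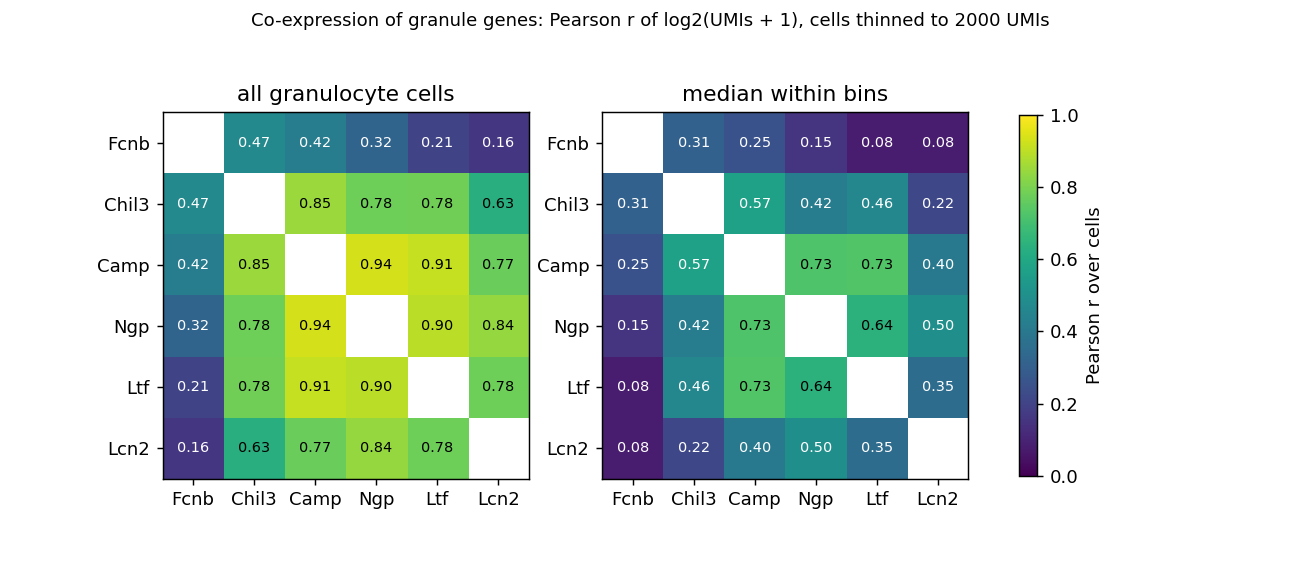
Pearson's r between members over granulocyte cells thinned to 2000 UMIs, over all cells (left) and as the median of the values within 10 bins of the maturation score (right). The block of Camp, Ngp and Ltf is at 0.898 or above on the left and at 0.644 or above on the right, and the Fcnb row holds the lowest value in both.

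Other genes of the granule program, from a list of 19, spread over the same order. Gfi1, Cebpa and Serpinb1a were highest in Elane-Mpo, and Cebpe and Orm1 in Orm1-Cebpe. Another 10 were highest in Aff2-Abca13, among them Cybb (2134 CPM), the catalytic subunit of the phagocyte NADPH oxidase, Cd177 (1013 CPM), Ly6g (879.4 CPM) and Lyz2 (11047 CPM). Mmp8 (3016 CPM), Mmp9 (2456 CPM), Retnlg (30253 CPM) and Pglyrp1 (2635 CPM) were highest in Mmp8-Retnlg, a cluster in which all 6 members were already below their level in Aff2-Abca13 in 6 of 6 libraries. Cebpe went from 236.4 CPM in Elane-Mpo to 314.6 CPM in Orm1-Cebpe, 190.9 CPM in Aff2-Abca13 and 43.2 CPM in Mmp8-Retnlg. Its highest cluster was that of Camp and Chil3, but Cebpe is a leading gene by which that cluster is called. The same holds for Orm1 there and for Mmp8 and Retnlg in Mmp8-Retnlg. The highest clusters of these genes were thus largely set by the naming. The Elane-Mpo cells with Ngp above 0 stood higher in Cebpe than Orm1-Cebpe did, at 398.2 CPM, and lower in Camp, at 30145 CPM. Of the close relatives, Chil4, a near copy of Chil3, had 26 UMIs in the whole table, and Chil1 stood at 209.4 to 295.4 CPM from Orm1-Cebpe to Gm5483-Stfa2l1. Fcna, the other mouse ficolin gene, had 3459 UMIs in all cells and at most 1.53 CPM in any granulocyte cluster. Reads shared between Chil3 and Chil4 could have been assigned to either, and this was not resolved here.

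Among 2475 genes of at least 50 CPM in the granulocyte cells, and leaving out the other members, those whose log2(CPM + 1) over the 10 bins in 6 libraries (60 points) was most like a member's were named as follows. Between members on the same points, r was highest for Ltf and Ngp (0.986) and for Camp and Ngp (0.980). Outside the members, Ngp was closest to Cybb (r = 0.982), Aldh2 (0.974) and Syne1 (0.964). Ltf was closest to the same 3 genes, with Syne1 first (0.980). Camp was closest to Serpinb1a (0.958), Tkt (0.957) and Cybb (0.95), and Chil3 to Tkt (0.972), Dstn (0.964) and Arhgdib (0.963). Lcn2 was closest to Anxa1 (0.988), Lyz2 (0.972) and Syne1 (0.970), and Fcnb to Lta4h (0.965), H2afz (0.962) and Tmem256 (0.955). The likeness is a correlation over these points and fixes neither the level nor the highest bin. Anxa1 and Lcn2 were both highest in the third bin. Serpinb1a was highest in the first bin (752.5 CPM), where Camp stood at 42.2% of its highest bin. Lta4h was highest in the second bin (568.1 CPM) and Fcnb in the first. Cybb ran from 650.8 CPM in the first bin to 2030 CPM in the third and 44.6 CPM in the last, while Ngp differed 298-fold between its highest and last bin.

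Outside the granulocyte clusters the 6 genes parted. Of all UMIs in the table, the granulocyte clusters held 92.0% for Fcnb, 86.8% for Camp, 84.2% for Ngp, 82.3% for Lcn2, 81.6% for Ltf and 72.5% for Chil3. In the 21167 other cells, counts above 0 were found for Chil3 in 29.0% of cells, for Lcn2 in 20.1%, for Ngp in 11.3%, for Ltf in 8.96%, for Camp in 8.51% and for Fcnb in 7.21%. Stored zeros were found for Ngp in 50.9% and for Camp in 50.6% of these cells, for Lcn2 in 26.6%, for Ltf in 22.8%, for Chil3 in 8.12% and for Fcnb in 1.24%. The genes with the most UMIs in granulocytes were thus those with the most emptied entries elsewhere, and in library terms the stored zeros of Ngp ranged from 23.6% to 62.9% of the other cells. The 2 T cell-like clusters were looked at for what remained after the correction, and they differed. In the one led by Trbc2 and Xcl1, at a median of 10151 UMIs, Ngp was above 0 in 0.162% of 619 cells and a stored zero in 51.5%, and the levels of the 6 genes lay between 0.145 and 8.87 CPM. In the one led by Tnfrsf4 and Ctla4, at a median of 8414 UMIs, Ngp was above 0 in 2.26% of 576 cells and a stored zero in 46.9%, with 317.6 CPM of Ngp, 203.3 CPM of Camp and 61.9 CPM of Chil3. There 0.694% of the cells drew 1% or more of their UMIs from the 6 members. These cells held 88.2% of the cluster's Ltf, Camp, Ngp and Lcn2 UMIs, so its pooled Ngp and Camp levels are no gauge of the correction.

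**Figure D5:**
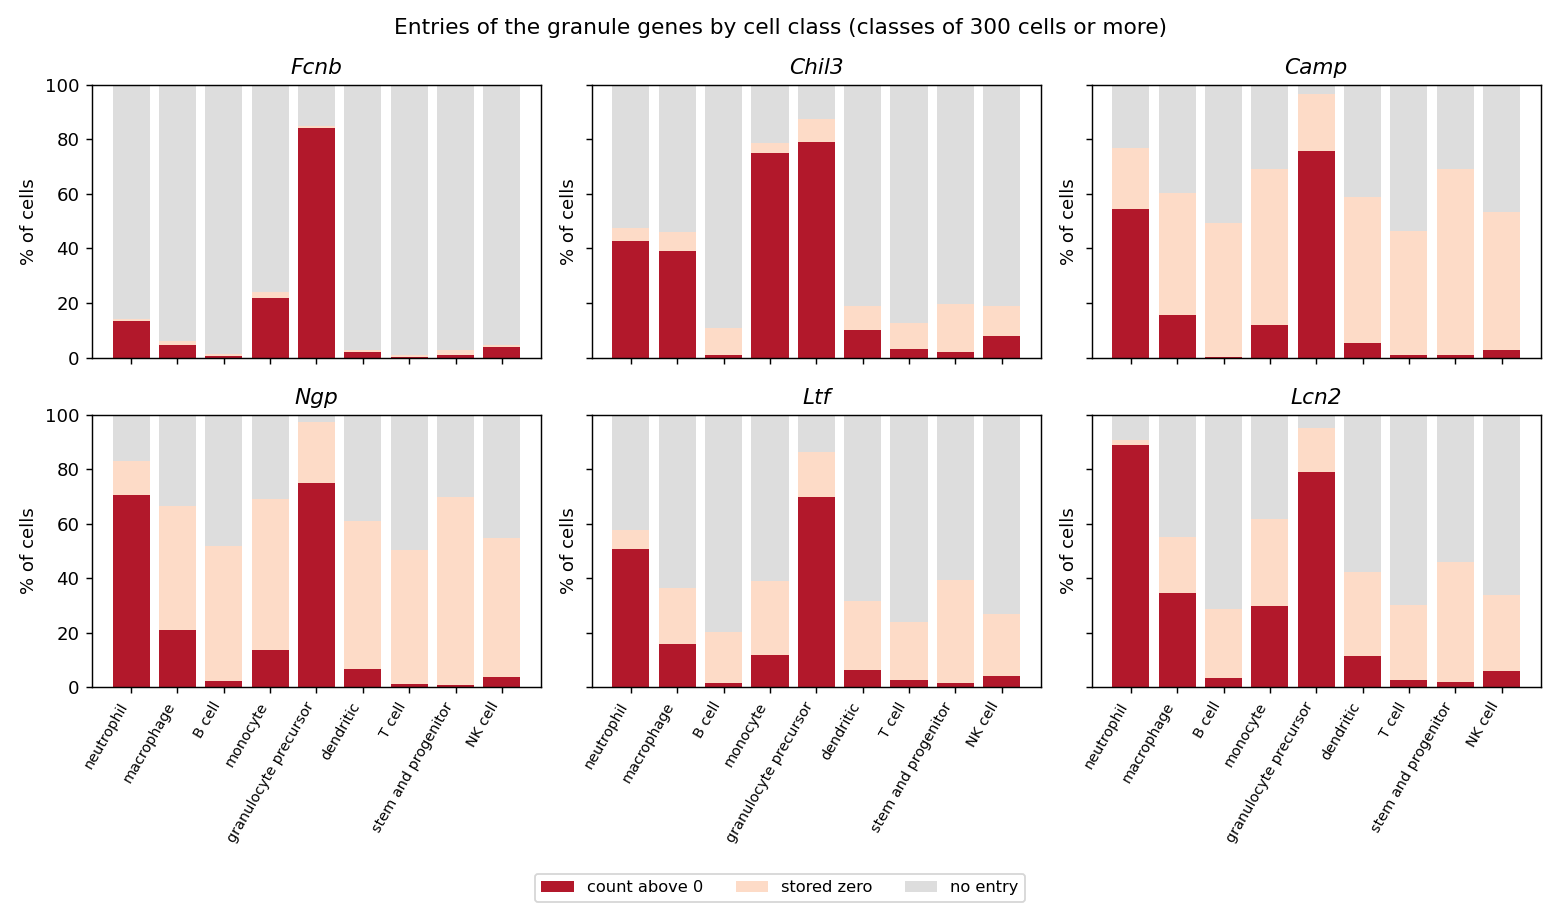
Share of cells (percent) with a count above 0, a stored zero or no entry for each member, in classes of at least 300 cells, with stacked bars that add up to 100%. Ngp has stored zeros in 49.3% of T cell-like and 55.3% of monocyte-like cells, while Chil3 is above 0 in 75% of monocyte-like cells with stored zeros in 3.67%.

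By class, Ngp was above 0 in 13.5% of monocyte-like, 21.1% of macrophage-like and 6.53% of dendritic-like cells. The 10% of cells with the most held 99.6%, 95.2% and 100% of the Ngp UMIs in these classes, the last fixed by the share above 0. The pooled Ngp level outside the granulocytes thus rested on few cells. It stood at 0, 9.82 and 271.5 CPM in 4091 B cell-like cells (lowest, median, highest library), at 0, 151.2 and 324.7 CPM in 1195 T cell-like cells, at 392.3, 1067 and 2316 CPM in 1653 dendritic-like cells, at 1170, 2787 and 3745 CPM in 3130 monocyte-like cells and at 1348, 2504 and 6581 CPM in 6843 macrophage-like cells. The ranges of the last 3 overlapped, and each lay above those of the B and T classes. The 52 basophil-like cells ranged over libraries from 0 to 9888 CPM with a median of 77.7 CPM. Chil3 had another order, with 723.8, 1172 and 1590 CPM in monocyte-like cells, 213.0, 347.5 and 669.9 CPM in macrophage-like cells and 51.6, 128.9 and 181.7 CPM in dendritic-like cells, without overlap. Fcnb in monocyte-like cells, at 28.0, 35.5 and 43.9 CPM, was likewise above macrophage-like cells at 5.19, 16.3 and 24.5 CPM, which in turn overlapped with dendritic-like cells at 2.87, 6.61 and 8.97 CPM. In the 652 stem and progenitor-like cells, the highest library of Ngp was 678.5 CPM and the median library 27.6 CPM.

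Chil3 was also found in cells with no Ngp count above 0. In the monocyte-like cluster led by Vcan and Nrg1 (1627 cells, median 14802 UMIs), Chil3 stood at 653.1, 1243 and 1745 CPM over libraries, and 79.0% of cells had a count above 0 (Wilson interval 77.0% to 80.9%). Ngp in the same cells stood at 0.595, 108.4 and 286.1 CPM with 2.27% of cells above 0, so that even the lowest library of Chil3 was above the highest of Ngp. Chil3 with no Ngp count above 0 was found in 77.2% of the cells. Of the cells without such a count, the 970 with a stored zero for Ngp had 1373 CPM of Chil3 and the 620 with no Ngp entry 1336 CPM. The monocyte-like cluster led by Arhgef37 and Gm26522 gave 303.8, 889.0 and 1039 CPM of Chil3 with 73.3% of 844 cells above 0. An unnamed cycling cluster led by Hist1h1b and Hist1h2ap, with Ly6c2, a gene of inflammatory monocytes, at 2258 CPM, gave 603.8, 1003 and 1160 CPM with 70.3% of 889 cells above 0 at a median of 28199 UMIs. The highest library of each of these clusters was below the 5351 CPM of the lowest library of Orm1-Cebpe, and the lowest libraries of the Vcan and Hist1h1b clusters were above the 568.4 CPM of the highest library of Mmp8-Retnlg. In the third monocyte-like cluster, led by Adgre4 and Pparg, Chil3 went more often with Ngp, in 46.7% of 659 cells, and without an Ngp count above 0 in 20.6%. There Chil3 stood at 1894 CPM in cells with Ngp above 0, at 744.6 CPM in those with a stored zero and at 399.4 CPM in those with no entry. In the T cell-like clusters 0.808% (Trbc2 and Xcl1) and 5.56% (Tnfrsf4 and Ctla4) of cells had a Chil3 count above 0.

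Fcnb was found in the same clusters at a lower level. It stood at 18.1, 24.7 and 36.6 CPM in the Vcan cluster (19.5% of cells above 0), at 7.62, 34.9 and 44.8 CPM in the Arhgef37 cluster (25.7%) and at 29.6, 60.4 and 69.5 CPM in the Hist1h1b cluster (42.5%), with stored zeros in at most 2.37% of their cells. In the T cell-like clusters it was above 0 in 0.323% of cells at 0.291 CPM (Trbc2 and Xcl1) and in 0.174% at 0.150 CPM (Tnfrsf4 and Ctla4). In the Hist1h1b cluster its level was 48.9 CPM in cells with a stored zero for Ngp and 38.9 CPM in those with no Ngp entry. In macrophage-like cells Chil3 varied by cluster. It stood at 540.2 CPM in the Arg1 and Ccl8 cluster (60.1% of cells above 0) and at 445.7 CPM in the Cxcl9 and Cxcl10 cluster (56.0%). The Lyve1 and Fxyd2 cluster had 161.4 CPM (12.3%), the Pdpn and Arg1 cluster 157.7 CPM (44.5%) and the Ccl8 and Vsig4 cluster 80.3 CPM (16.1%). Ngp stood at 5309, 822.3, 1846, 253.6 and 890.3 CPM in the same order. Arg1 and Ccl8 cells that drew under 1% of their UMIs from the 6 members had 136.8 CPM of Chil3. Lyve1 and Fxyd2 cells under the same cut had 25.3 CPM. Chil3 is itself 1 of the 6 members, so the cut by itself favors a lower Chil3 level.

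Ltf, Camp, Ngp and Lcn2 were found together in a part of the other cells. Of 27 clusters outside the granulocytes, 12 had 1000 CPM or more of Ngp and 4 had under 10 CPM. In the 12, the ratio of Camp to Ngp UMIs lay between 0.559 and 1.27, and cells that drew 1% or more of their UMIs from the 6 members, 2.52% to 41.2% of a cluster, held 90.9% to 100% of the Ltf, Camp, Ngp and Lcn2 UMIs. In the Arg1 and Ccl8 macrophage-like cluster, 519 of 2054 cells were of this kind. They had 15455 CPM of Ngp, 0.822 Camp and 0.376 Lcn2 UMIs per Ngp UMI, 73708 CPM of S100a8 and a median of 32219 UMIs, and the other 1535 cells had 466.7 CPM of Ngp, 0.246 Camp and 1.20 Lcn2 UMIs per Ngp UMI, 19600 CPM of S100a8 and a median of 22925 UMIs. The macrophage gene C1qa stood at 606.7 CPM in the former and 1109 CPM in the latter. In the monocyte-like Adgre4 and Pparg cluster, 269 of 659 cells had 18750 CPM of Ngp with 0.855 Camp UMIs per Ngp UMI at a median of 26239 UMIs, next to 15134.5 UMIs in the other cells. An unnamed cluster led by Jchain and Igha gave 23383 CPM of Ngp in 113 of 274 cells at a median of 20082 UMIs, next to 11169 UMIs. In the dendritic-like cluster led by Siglech and Grm8, 14 of 555 cells carried 21346 CPM of Ngp, and the other 541 cells 4.76 CPM. The cells were singled out by their member counts, so the levels describe them and test nothing. The median depth was higher in the member-rich cells in each cluster named here, and the part of doublets in these levels was not tested.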

How the data were processed

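Per the labels and the methods of the study, the authors aligned 3′ single-cell reads to mm10 with Cell Ranger 7, removed ambient RNA with SoupX and doublets with DoubletFinder, filtered cells with Seurat and deposited whole UMI counts of all 6 libraries in 1 table. The sources used here do not link barcode numbers to samples, so all values are pooled or per library. Each cell was scaled to 10000 counts before taking logs, and 30 principal components of 2000 variable genes, from which the 4 members among them were removed, were clustered (15 neighbors, Leiden resolution 1.0, scanpy 1.11.5, igraph 0.11.9). Clusters were named from markers of 17 classes. The members and lists were chosen with earlier results of these data known, and how marker counts become a class name was settled after the clusters had been seen. Named genes are the 6 members, the genes of the score, 19 program genes, 3 relatives and the 3 genes most alike each member. Ccdc12, Map4, Ly6c2, C1qa and cluster-leading genes were named after their values had been seen. Cells were thinned to 2000 UMIs without replacement. The likeness ranking was tested on simulated data in which only the members and genes given a member's profile changed over the bins. That test cannot show how the ranking fares among other genes that change. No doublet caller was run here. With UMIs as the unit and no length scaling, levels of different genes compare captured 3′ molecules. Alternatives are given with the closing observations.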

Additional observations from a re-analysis of the deposited data

How the results depend on the processing

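No paired analysis was possible because the sources used here do not tie barcodes to samples and no test was run. The comparison of PBS and PEPITEM and its fit with a replicate block were not run for the same reason. With resolution 0.5, resolution 2.0, the members kept among the clustered genes, and the libraries weighted equally, the highest cluster level in CPM was 11037, 12675, 12707 and 12451 for Ltf, 34256, 46023, 41636 and 40759 for Camp, 35517, 42634, 41647 and 41588 for Ngp, 15026, 16824, 16715 and 15776 for Lcn2, 1063, 1468, 883.7 and 1130 for Fcnb, and 4382, 6823, 5722 and 5982 for Chil3. Without each library in turn it was 12121 to 12230 for Ltf, 40951 to 41841 for Camp, 39516 to 41013 for Ngp, 15929 to 16386 for Lcn2, 985.5 to 1052 for Fcnb and 5615 to 6352 for Chil3. The highest bin, as the percentage of the order at its middle, moved from 15 to 30 for Camp and Ngp with 5 bins, and from 15 to 25 for Ngp and from 5 to 15 for Fcnb with the late genes alone. It was unchanged for all 6 members without each library in turn. The median correlation over pairs of members was 0.859 without thinning, 0.795 by Spearman's rank, 0.404 within bins, and 0.773 to 0.784 without each library. Outside the granulocyte clusters, the percentage of cells with a count was 31.8 for Ltf, 59.1 for Camp, 62.2 for Ngp, 46.7 for Lcn2, 8.45 for Fcnb and 37.1 for Chil3 when stored zeros counted as detected, and 6.72, 6.99, 9.06, 13.6, 1.46 and 18.7 after thinning. Without each library it was 8.58 to 9.32, 8.06 to 9.02, 10.8 to 11.8, 19.3 to 21.0, 6.16 to 7.69 and 27.6 to 30.2. The alternatives without Dach1-Abca13, without shared barcodes and, for folds, without each library were chosen after seeing the data. Causes were not tested. Levels near the lowest printed rest on few UMIs.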
